A study of Mus musculus with 11 samples.

Results

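The genes described here encode the potassium channels of mouse cerebellum: every gene whose symbol starts with Kcn followed by a subfamily letter code and a number, with antisense and opposite-strand transcripts left out. The rule took 93 of the 55421 genes counted in each library and did not use any measured value. RNA bound to HA-tagged ribosomes was pulled down from whole cerebellum of mice at postnatal day 56, by the RiboTag method, and sequenced. KO libraries (n = 4) came from Pcp2Cre;Tie2flox/flox;Rpl22HA/HA mice, and WT libraries (n = 7) from Pcp2Cre;Rpl22HA/HA mice. All 11 mice therefore carried both the Cre and the tagged ribosomal protein Rpl22, and the groups differed by the floxed alleles of Tie2 (Tek), the receptor for angiopoietins. Pcp2 is a Purkinje cell promoter, so the tag and the deletion were directed to Purkinje cells, with no inducing treatment. The pull-down enriches Purkinje cell RNA from whole tissue but does not remove RNA of other cells. Batch 1 held 2 KO and 1 WT libraries, batch 2 held 1 and 1, and batch 3 held 1 and 5. Each library goes by its group and the tag of its mouse.

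Potassium channels let potassium leave the cell and so set the resting potential, end each action potential and shape the interval to the next. Purkinje cells fire spontaneously at high rates, for which Kv3 channels repolarise the membrane quickly, BK and SK channels respond to calcium entry, and Kv1 and Kv4 channels set threshold and dendritic excitability. Pore subunits assemble as tetramers, or as dimers in the K2P family, and auxiliary proteins such as KChIP and Kv beta subunits change their traffic and gating.

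Of the 93 genes, 47 passed the filter on low counts, and 13 of these were called at an adjusted p under 0.05 (quasi-likelihood fit in edgeR on batch and genotype, Benjamini-Hochberg over all 13375 tested genes). In KO libraries 2 were higher, Kcnd2 and Kcnc1, and 11 were lower, of which 9 are described here: Kcnip1, Kcnip4, Kcnd3, Kcnab2, Kcnab3, Kcng4, Kcnma1, Kcnj11 and Kcnk1. The share called was 27.7% of the tested potassium channel genes, against 24.4% of all tested genes. By direction, 4.26% were higher against 10.9% of all genes, and 23.4% were lower against 13.4%. The median log2 fold change was 0.0 over the tested members and -0.02 over all genes, and 48.9% of members against 51.3% of all genes had a negative value. Sizes of the 11 described changes ran between 0.28 and 0.95 on the log2 scale, all under 2-fold. The count rested on single libraries: without KO M456 only Kcnip1 was called, and without WT M379, the sole control of batch 1, only Kcnd2. Over all genes these omissions left 335 and 522 calls.

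Total reads in genes ran from 2.58 to 4.2 M in KO and from 4.09 to 5.14 M in WT libraries. The difference within batches was -0.47 on the log2 scale (exact permutation test within batches over 36 arrangements, two-sided p = 0.0278, the smallest this design allows). With the library total as a covariate none of the members was called by edgeR and 5 had an unadjusted p under 0.05, against 20 in the main fit. Of all genes 0 were called and 1841 had such a p. With a score of Purkinje markers minus granule, glial and oligodendrocyte markers as a covariate the counts were again 0 and 0, with 10 members and 1783 genes at an unadjusted p under 0.05. The 13 genes kept their sign under both covariates, but several fold changes shrank by more than 1.5 times. With the library total Kcnd2 was 0.48 on the log2 scale against 0.83 in the main fit, Kcnc1 0.24 against 0.53, Kcnma1 -0.14 against -0.28, Kcnd3 -0.09 against -0.44 and Kcnab2 -0.05 against -0.52. With the marker score Kcnd2 was 0.43 and Kcnip1 -0.38, against -0.75 for Kcnip1 in the main fit. Tek itself had 0, 7, 0 and 14 reads in KO F371, M374, M390 and M456, against 0 to 40 reads in WT libraries. Whole-gene counts do not show whether the floxed part was lost, so they do not check the labels.

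Purkinje markers were high in every library, with 12 genes summing to between 5383 and 7506 CPM (read counts scaled to a common library size, TMM-adjusted) in KO and between 5483 and 6366 CPM in WT libraries. Markers of other cell types were also present, and none of them was at 0 in a whole group. Of the tested granule cell markers 7 of 11 were called higher in KO, and their summed level ran from 534 to 1564 CPM in KO against 404 to 797 CPM in WT. For Bergmann glia and astrocytes 6 of 12 were higher (928 to 1647 against 840 to 1034 CPM), and for oligodendrocytes 2 of 9 (314 to 944 against 275 to 701 CPM). Interneuron and unipolar brush cell markers were called higher for 3 of 8 (211 to 320 against 145 to 247 CPM), and microglial markers for 2 of 7 (15.7 to 111 against 31.3 to 61.0 CPM). Endothelial and mural markers were called higher for 1 of 7 (27.4 to 124 against 18.3 to 117 CPM), and choroid plexus markers for 2 of 5 (268 to 608 against 274 to 428 CPM). A large part of the glial sum was Aldoc (439 ± 46.3 CPM in KO and 454 ± 32.5 CPM in WT, mean ± SD). Likewise a large part of the choroid plexus sum was Clic6 (169 ± 38.8 CPM in KO and 205 ± 18.5 CPM in WT). A large part of the interneuron and unipolar brush cell sum was Prkcd (113 ± 11.4 CPM in KO and 126 ± 27.7 CPM in WT). Aldoc, Clic6 and Prkcd were not called. The sums do not show which cell type the reads of these genes came from, Purkinje cells included. None of these other lists had a member called lower, while of the Purkinje markers 4 of 12 were higher and 1, Homer3, was lower. In every batch both the marker score and the library total were lower in each KO library than in each WT library. The covariate fits above therefore cannot tell the part of markers or depth from that of genotype. That part in the results below was not tested. In such bulk libraries fewer cells of a type and less RNA per cell cannot be told apart.

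Kcnd2 and Kcnd3 encode Kv4.2 and Kv4.3, the pores of the dendritic A-type current, and moved in opposite directions in KO libraries. They are shown here by the 250 bases before their listed start, each of which lies outside the listed span of the gene (RefSeq, GRCm38.p6, plus strand). Kcnd2 was read at chr6:21215096-21215345 and Kcnd3 at chr3:105451640-105451889, and capitals mark a match to GGGCGG.

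Kcnd2: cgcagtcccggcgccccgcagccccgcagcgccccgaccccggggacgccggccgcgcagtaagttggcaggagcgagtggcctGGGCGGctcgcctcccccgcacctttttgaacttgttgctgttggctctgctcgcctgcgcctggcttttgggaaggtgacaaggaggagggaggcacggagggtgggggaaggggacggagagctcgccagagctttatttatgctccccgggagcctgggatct

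Kcnd3: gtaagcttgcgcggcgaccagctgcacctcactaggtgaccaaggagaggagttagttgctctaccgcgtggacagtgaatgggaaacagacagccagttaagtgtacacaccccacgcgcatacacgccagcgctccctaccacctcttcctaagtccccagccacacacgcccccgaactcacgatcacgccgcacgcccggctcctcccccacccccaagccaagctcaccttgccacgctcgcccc

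The Kcnd2 window was 68.8% G and C with 22 CG steps, and that of Kcnd3 62.8% with 18, against medians of 52.4% and 6.0 over 32536 promoter windows of this length. Searched on both strands with no overlap between the motifs, GGGCGG occurred once in the Kcnd2 window and was not found in the Kcnd3 window, and 33.0% of all windows held it. The TATA box sequence TATAAA was in neither window and in 12.3% of all windows. AGGTCA was likewise in neither and in 14.0% of all, and TGTTTAC in neither and in 3.17% of all. These matches describe letters only.

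Kcnd2 had 196, 238, 144 and 294 CPM in KO F371, M374, M390 and M456, against 104 to 165 CPM in WT libraries (median 133). All KO libraries but M390 lay above every WT library. The log2 fold change was 0.83 ± 0.16 (SE; adjusted p = 0.00337), and the within-batch ratios of mean CPM were 1.06, 0.11 and 1.06 on the log2 scale in batches 1, 2 and 3. The call was lost without KO M456 (0.65, adjusted p = 0.11). Granule cells also express Kcnd2. Summed granule markers were 645, 994, 534 and 1564 CPM in the same KO libraries, the same order as for Kcnd2. The glial, oligodendrocyte and interneuron sums also had this order, so it is not particular to granule markers. The microglial, endothelial and choroid plexus sums did not. Whether other cells gave part of the Kcnd2 reads was not tested. With the marker score as a covariate the log2 fold change of Kcnd2 was 0.43 (adjusted p = 0.406), and with the library total 0.48 (adjusted p = 0.411).

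Kcnd3 moved the other way. It had 157, 168, 196 and 174 CPM in KO F371, M374, M390 and M456, against 208 to 331 CPM in WT libraries (median 263). The groups did not overlap, and the log2 fold change was -0.44 ± 0.13 (adjusted p = 0.0263), with ratios of -0.35, -0.13 and -0.71 in batches 1 to 3. It was no longer called without KO M456 (-0.26, adjusted p = 0.306) or without WT M379 (-0.46, adjusted p = 0.0868), nor in animals tagged M alone (-0.41, adjusted p = 0.0725). Kcnd1, the third Kv4 gene, averaged 50.7 ± 13.7 CPM in KO and 36.5 ± 6.32 CPM in WT libraries (SD, n = 4 and 7) and was not called (0.48 ± 0.22, adjusted p = 0.119). Summed over the 3 genes and pooled over batches, the Kv4 level was 443 ± 66.3 CPM in KO and 435 ± 69.2 CPM in WT libraries, which differed by less than either SD. The batches held KO and WT in unequal numbers, so these pooled means and SDs also carry batch differences. Within batches 1, 2 and 3 the log2 ratios of the mean sums were 0.33, -0.04 and 0.19.

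The KChIP proteins bind calcium and attach to Kv4 channels, raising their number at the surface. Kcnip1 had 151, 122, 279 and 178 CPM in KO F371, M374, M390 and M456, against 257 to 336 CPM in WT libraries (median 292). Only KO M390 reached the WT range, and the log2 fold change was -0.75 ± 0.15 (adjusted p = 0.00378). The call was lost without WT M379 (-0.44, adjusted p = 0.0696). Kcnip4 followed the same order of libraries, with 150, 142, 258 and 179 CPM in KO against 230 to 284 CPM in WT (median 263). Its log2 fold change was -0.53 ± 0.12 (adjusted p = 0.00618), not called without WT M379 (-0.32, adjusted p = 0.0991) or KO M456 (-0.56, adjusted p = 0.0605). Kcnip3 averaged 21.0 ± 28.5 CPM in KO and 20.1 ± 11.3 CPM in WT and was not called, and Kcnip2 did not pass the filter. The summed KChIP level was 312, 273, 541 and 421 CPM in KO libraries against 511 to 617 CPM in WT.

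**Figure D1:**
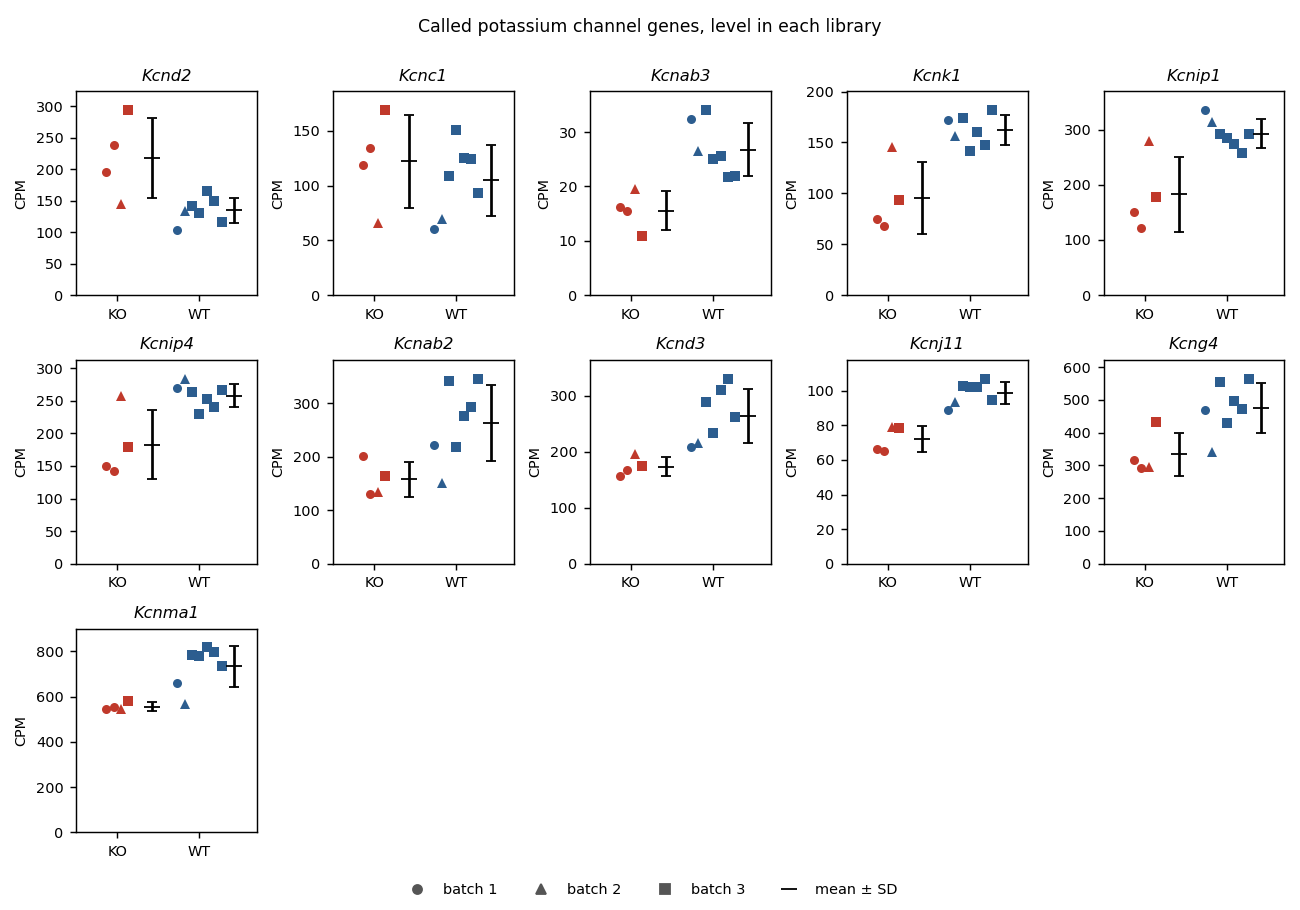
Level of each of the 11 described called genes in CPM (y axis, from 0) in the KO libraries (left, red) and WT libraries (right, blue). Symbols give the batch and bars the mean ± SD over 4 KO and 7 WT libraries. KO and WT do not overlap for Kcnab3, Kcnd3 and Kcnj11, and KO M390 of batch 2 lies nearest to the WT libraries for Kcnk1, Kcnip1 and Kcnip4.

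Kv1 channels open near threshold in axons and dendrites. Their tested pore genes were not called, while 2 of the 3 Kv beta genes were called lower, as were 13.4% of all tested genes. Counts this small were not tested against that share. Kv beta subunits are cytoplasmic proteins related to aldo-keto reductases that bind Kv1 tetramers. Kcnab2 had 202, 130, 134 and 164 CPM in KO F371, M374, M390 and M456, against 150 to 346 CPM in WT libraries (median 276). The groups overlapped, since WT M386 of batch 2 was as low as KO libraries, and the log2 fold change was -0.52 ± 0.17 (adjusted p = 0.0414). This call was lost in 7 of 11 omissions of a library (without KO M374 and M456, and WT M379, F473, M477, M479 and M480), with KO M456 giving the highest adjusted p (-0.31, 0.389). It was also lost by limma-voom (adjusted p = 0.0719) and after thinning all libraries to the smallest (adjusted p = 0.0551). Kcnab3 had 16.3, 15.4, 19.6 and 10.8 CPM in KO against 21.7 to 34.1 CPM in WT (median 25.6). No KO library overlapped the WT range, and the log2 fold change was -0.95 ± 0.26 (adjusted p = 0.0165), not called without KO M456 (-0.78, adjusted p = 0.144) or WT M379 (-0.88, adjusted p = 0.116), nor by limma-voom with sample weights (adjusted p = 0.0584). Kcnab1 averaged 290 ± 39.8 CPM in KO and 363 ± 38.9 CPM in WT, a log2 fold change of -0.31 ± 0.12 that did not pass (adjusted p = 0.0658). The summed Kv beta level was 423 to 494 CPM in KO and 518 to 773 CPM in WT libraries, without overlap. Within batches 1, 2 and 3 the log2 ratios of the mean sums were -0.58, -0.12 and -0.46.

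Among the Kv1 pores, Kcna1 (Kv1.1, the gene of episodic ataxia) averaged 152 ± 50.5 CPM in KO and 209 ± 62.7 CPM in WT libraries. Batch 3 held 5 of the 7 WT libraries and 1 of the 4 KO libraries, and Kcna1 was high there in both groups (220 CPM in KO M456, and 237 to 250 CPM in WT). With batch in the model the log2 fold change was -0.04 ± 0.1 (adjusted p = 0.779). Kcna2 averaged 298 ± 35.1 CPM in KO and 319 ± 45.8 CPM in WT (0.01 ± 0.11, adjusted p = 0.952). Kcna6 averaged 277 ± 23.9 and 273 ± 39.0 CPM (-0.02 ± 0.13, adjusted p = 0.925). A p above the threshold does not show equal levels.

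Silent subunits form no channel alone but join other Kv pores, and 1 of the 5 tested was lower, where 13.4% of all tested genes were. Kcng4 (Kv6.4) had 317, 293, 295 and 432 CPM in KO F371, M374, M390 and M456, against 340 to 565 CPM in WT (mean 475 ± 76.8, SD, n = 7). Its log2 fold change was -0.35 ± 0.11 (adjusted p = 0.0271), and KO M456 lay inside the WT range. It was not called without KO F371, M374 or M456 or WT M379, the last giving -0.19 and an adjusted p of 0.269, nor in animals tagged M alone (adjusted p = 0.0917). The other tested silent subunits, Kcns1, Kcns2, Kcnv2 and Kcng2, were not called.

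Kv3 channels close fast and let neurons fire at high rates. Kcnc1 (Kv3.1, also abundant in granule cells) had 119, 134, 65.9 and 169 CPM in KO F371, M374, M390 and M456, against 60.7 to 151 CPM in WT (median 109). The groups overlapped, and the log2 fold change of 0.53 ± 0.18 had an adjusted p of 0.0496. Kcnc1 alone of the 13 changed sign between batches (1.05, -0.08 and 0.49), and its call was lost without KO F371, M374 or M456 and without WT M379, F473, M477, M479 or M480. The highest adjusted p of these was 0.339, without WT M379 (0.3), and with no batch term the fold change was 0.21 (adjusted p = 0.57). Library totals without TMM, thinning and animals tagged M alone also ended the call (adjusted p = 0.0617, 0.0626 and 0.111). Kcnc4 was read at 0, 23.2, 0 and 3.21 CPM in KO libraries and at 0 to 12.7 CPM in WT libraries, too uneven for a direction. Kcnc2 was not called.

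Kcnq3, a subunit of the slow M-type current, averaged 7.02 ± 4.06 CPM in KO and 6.32 ± 3.02 CPM in WT libraries (SD, n = 4 and 7) and was not called (adjusted p = 0.999).

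Of the ERG channels, Kcnh7 (ERG3) had 53.4, 63.8, 125 and 79.9 CPM in KO F371, M374, M390 and M456, against 98.3 to 140 CPM in WT (median 128). It did not pass (-0.48 ± 0.18, adjusted p = 0.0634), and KO M390 alone lay in the WT range. Without batch 2, which holds that library, it did (-0.73, adjusted p = 0.00146). Kcnh2 (ERG1), chosen for mention after its values were seen, was above the WT libraries of its own batch in every batch (63.3 and 46.3 against 42.9, 34.3 against 26.6, and 107 against 67.2 to 90.3 CPM) but was not called (0.4 ± 0.16, adjusted p = 0.0828).

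Kcnma1, the pore of the BK channel that calcium and voltage open together, had nearly the same level in every KO library. It had 543, 554, 545 and 582 CPM in KO F371, M374, M390 and M456, against a median of 779 CPM, a highest value of 818 CPM and a mean of 735 ± 90.3 CPM in WT libraries (SD, n = 7). Most WT libraries came from the batch where WT levels of this gene were highest, so the WT median and mean also carry batch differences. Within the batches, in order, the log2 ratios of mean CPM were -0.26, -0.06 and -0.43. Only WT M386 lay within the range of the KO libraries, and the log2 fold change was -0.28 ± 0.08 (adjusted p = 0.0221), a level 17.6% lower. Calls were lost without KO M456 (-0.18, adjusted p = 0.217) and without WT M379 (-0.27, adjusted p = 0.0945), with no filter on low counts (adjusted p = 0.0521) and in animals tagged M alone (adjusted p = 0.0868). Kcnmb4, the neuronal BK beta subunit, averaged 38.2 ± 5.56 CPM in KO and 29.3 ± 6.5 CPM in WT and was not called (0.39 ± 0.23, adjusted p = 0.227). The transcript Kcnmb4os2, which overlaps Kcnmb4 and is no member here, was higher in KO (46.8 ± 19.0 against 16.7 ± 7.67 CPM, log2 fold change 1.36 ± 0.38, adjusted p = 0.0187). Whether counting used strand is not given in the sources used here, so reads of such overlapping transcripts cannot be told apart. Kcnn2 (SK2), the small-conductance calcium-activated channel of Purkinje cells, had 21.5, 34.7, 54.8 and 24.9 CPM in KO against 36.1 to 52.4 CPM in WT (median 45.4). KO M390 lay above all WT libraries and the others below them, and the gene was not called (-0.46 ± 0.24, adjusted p = 0.17; without batch 2 -0.71, adjusted p = 0.0342).

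Inward rectifiers pass inward current more readily than outward current, and K2P channels carry leak current. Kcnj11 (Kir6.2, the pore of the channel that ATP closes) had 66.2, 65.0, 78.9 and 78.3 CPM in KO F371, M374, M390 and M456, against 88.9 to 107 CPM in WT libraries (median 102). The groups did not overlap, and the log2 fold change was -0.36 ± 0.12 (adjusted p = 0.0443), with ratios of -0.44, -0.24 and -0.37. The call was lost in 8 of 11 omissions (KO F371, M374 and M456, and WT M379, F473, M477, M479 and M480), with adjusted p up to 0.223 without WT M379 (-0.31), and DESeq2 size factors in place of TMM gave -0.35 (adjusted p = 0.0526). It was also lost with library totals alone, under both other filters, in animals tagged M and by limma-voom (adjusted p between 0.0507 and 0.141). Kcnj11 and Kcnc1, with opposite signs, lie 295 kb apart on chromosome 7. Abcc8, the sulfonylurea receptor that surrounds Kir6.2, averaged 26.9 ± 8.30 CPM in KO and 37.4 ± 10.1 CPM in WT and was not called (adjusted p = 0.845). Kcnj9 (GIRK3), gated by G proteins, averaged 171 ± 29.6 CPM in KO and 207 ± 26.5 CPM in WT and was not called (-0.09 ± 0.09, adjusted p = 0.491).

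Kcnk1 (TWIK-1, a K2P leak channel) had 75.2, 68.0, 146 and 93.6 CPM in KO F371, M374, M390 and M456, against 142 to 182 CPM in WT libraries (median 160). KO M390 lay at the foot of the WT range and the other KO libraries far below it, with a log2 fold change of -0.77 ± 0.16 (adjusted p = 0.00539). Without KO M456 it was -0.77 (adjusted p = 0.0722) and without WT M379 -0.48 (adjusted p = 0.0991). The other K2P genes tested, Kcnk2, Kcnk3, Kcnk4, Kcnk9 and Kcnk10, were not called.

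**Figure D2:**
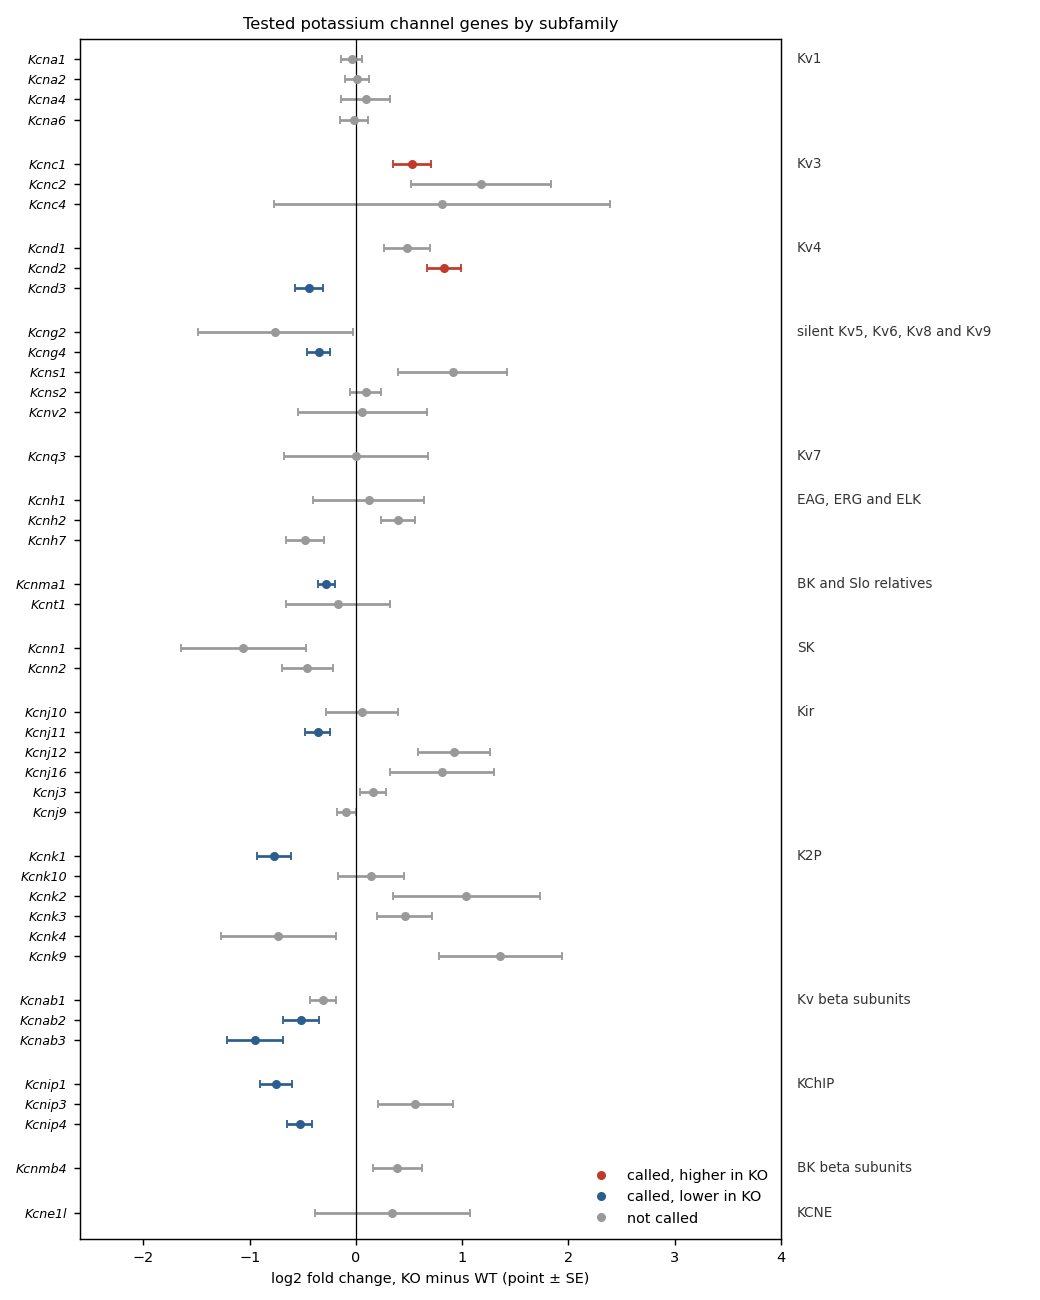
Fitted log2 fold change, KO minus WT, with its SE (x axis) for 43 of the 47 tested potassium channel genes, grouped by subfamily (y axis). Red marks genes called higher in KO, blue those called lower and grey those not called; Kcnd2 and Kcnc1 are the 2 called genes on the right of 0.

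**Figure D3:**
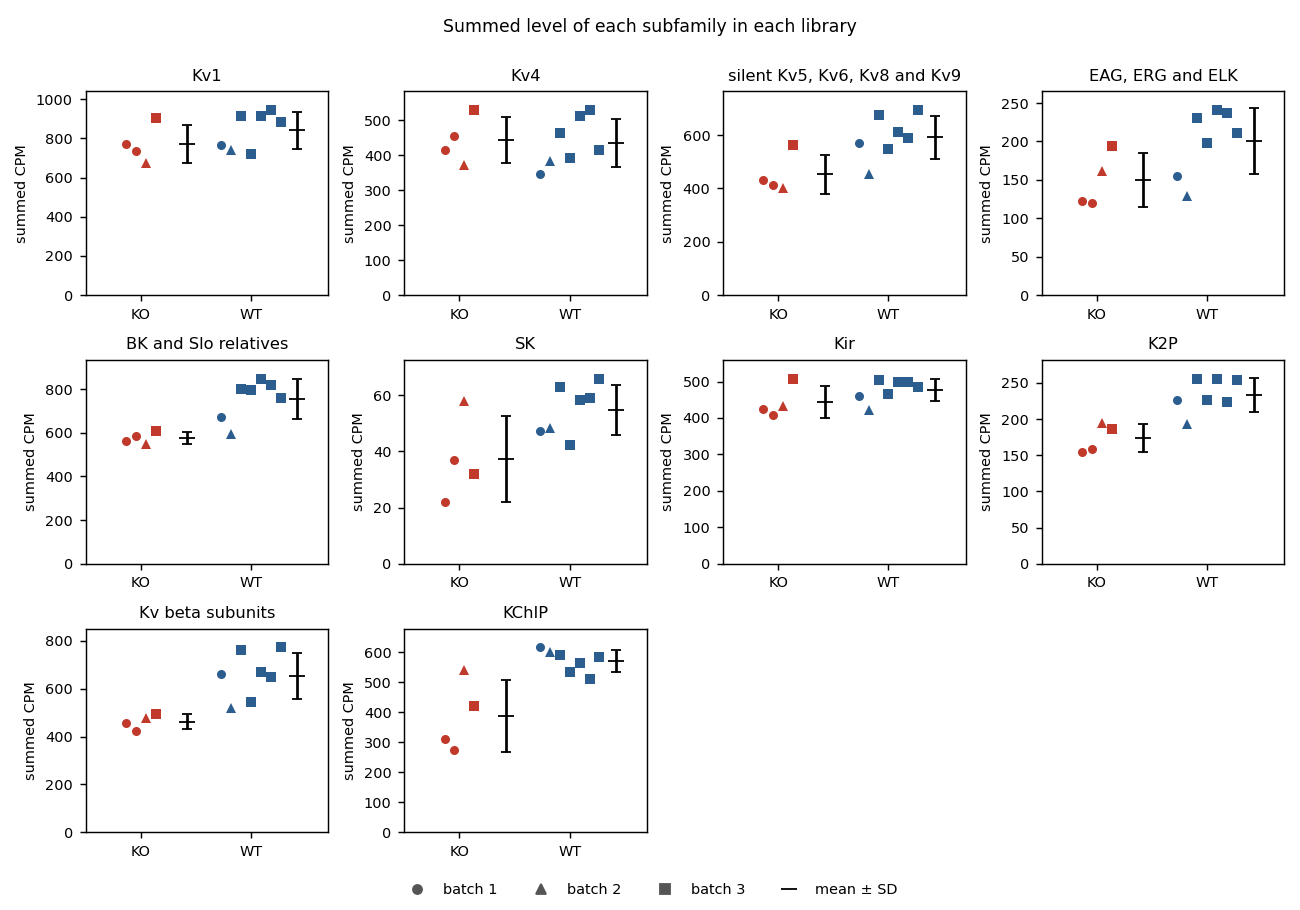
Summed CPM of each subfamily (y axis, from 0) in KO libraries (left) and WT libraries (right), with batches by symbol and mean ± SD. Kv2, Kv3, Kv7, BK beta and KCNE sums are not shown. Of the sums shown, only those of the Kv beta subunits do not overlap between the groups.

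CPM is not divided by transcript length, so levels were compared between libraries of one gene or sum and not between genes. The sum over all potassium channel genes was 4369 to 5382 CPM in KO and 4773 to 6224 CPM in WT libraries. Among members over 50 CPM in WT, 11 of 22 were called, 9 of them lower, against 32.6% of the 6368 genes above that level called and 19.8% lower. At or under 50 CPM 2 of 25 were called, against 16.8% of genes. Without overlap between the 4 KO and 7 WT libraries were 4 members, or 8.51%, against 13% of all tested genes. Lying beyond every WT library of its own batch in every batch, 9 members were lower (19.1%, against 17.8% of genes) and 3 higher (6.38%, against 16.4%), the last being Kcnd2, Kcnh2 and Kcnj12.

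The WT libraries of the batches also differed from each other. In 20 of the 47 genes (42.6%) the WT libraries of batches 1 and 2 were both below all 5 WT libraries of batch 3, against 19.3% of all genes, and in 3 (Kcnip1, Kcnip4 and Kcnj3, 6.38%) both were above, against 17.8%. In 11 of those 20 the KO libraries showed the same order of batches, as in 1392 of the 2580 such genes over all tested. Of the 13 called genes, 12 had the same sign in the 3 batches, and in 12 the ratio smallest in size was that of batch 2. These genes were called from the same libraries, so agreement in sign follows in part from the call. The like shares over all called genes were not taken, so neither count can be read as particular to potassium channel genes. Batch 1 gave a median ratio size of 0.88 over the 13 genes on the log2 scale, batch 2 one of 0.16 and batch 3 one of 0.71. In batch 2 the pair was KO M390 and WT M386, whose totals of 4.2 and 4.34 M reads were also the closest of the 3 batches.

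**Figure D4:**
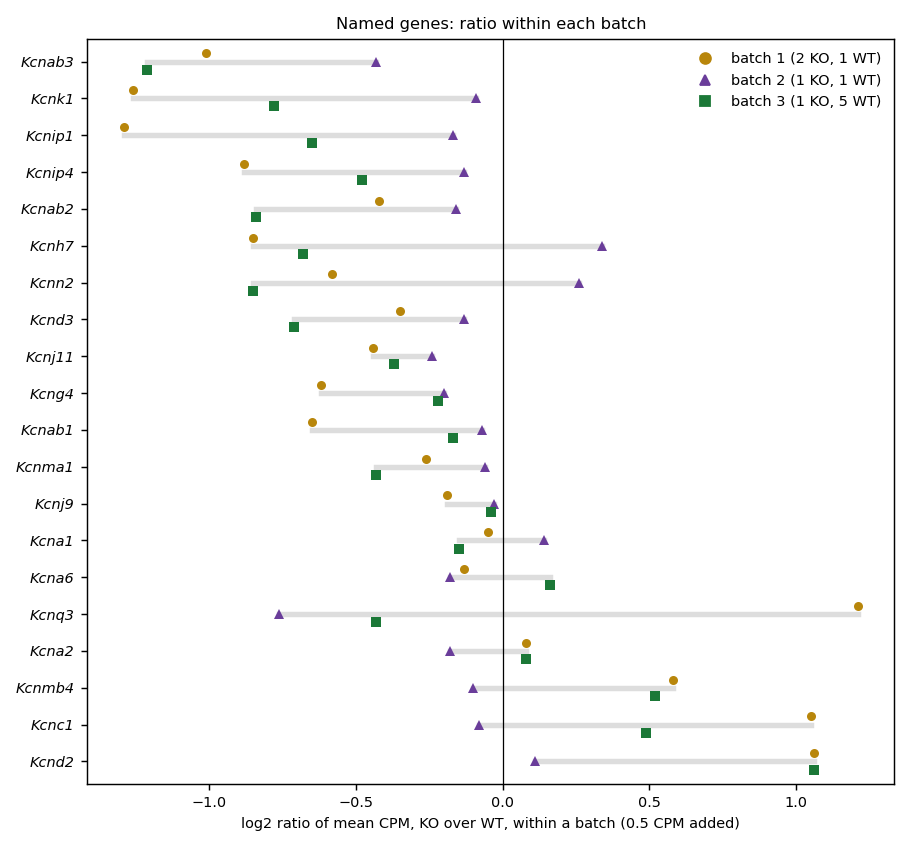
Log2 ratio of mean CPM, KO over WT, within each batch (x axis, 0.5 CPM added) for the described genes (y axis), except Kcnc4, whose values in KO libraries range from 0 to 23.2 CPM. Batch 2 ratios (triangles) lie nearest 0 for most lower genes, and Kcnd2 is above 0 in all 3 batches.

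Proteins that work with these channels but carry other names were read in the same fit, from a list of 29 of which 25 were tested. In KO 4 of the 25 were higher and 4 lower, where 10.9% and 13.4% of all tested genes were, with a median log2 fold change of 0.02 against -0.02 over all genes. The higher genes were Vapb, an anchor protein of the endoplasmic reticulum that binds Kv2 (0.75 ± 0.13, adjusted p = 0.00236), Cntn2, which holds Kv1 channels beside the node of Ranvier (1.16 ± 0.27, adjusted p = 0.00804), and the calmodulin genes Calm2 (0.41 ± 0.12, adjusted p = 0.0269) and Calm3 (0.32 ± 0.11, adjusted p = 0.0443). The lower genes included Tmem175, a lysosomal potassium and proton channel (-1.32 ± 0.24, adjusted p = 0.00314), Adam22, a surface protein of Kv1 complexes (-0.71 ± 0.17, adjusted p = 0.00843), and Ank3, the ankyrin that gathers Kv7 channels at the axon initial segment (-0.72 ± 0.19, adjusted p = 0.0157). Dpp6 and Dpp10, which join Kv4 channels beside KChIP, were not called (adjusted p = 0.897 and 0.384). Lrrc26 and Lrrc38 were at 0 in all KO libraries and Lrrc52 in all WT libraries, all 3 below the filter.

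Of the 46 genes that did not pass the filter, 6 had no read in any library, Kcnk16, Kcnk18, Kcne1, Kcnj1, Kcnj15 and Kcng3, named after their values were seen. A further 14 had reads in WT and none in KO, which had fewer libraries and less depth. The like share over all genes was not taken, so this count cannot be read as particular to potassium channel genes. For counting error only, 3 counts correspond to 0.2217 CPM over the pooled KO libraries and 0.0938 CPM over the pooled WT libraries. The highest group mean among the 46 was 2.97 CPM, and the highest count in 1 library was 36 reads, both for Kcnj6 in KO. A looser filter of at least 1 CPM in 4 libraries let 59 members be tested. By edgeR it called Kcnh4 (2 reads in KO and 85 in WT libraries) and Kcnh6 (0 in KO and 33 in WT) lower, both named after their values were seen. No KO library reached 1 CPM for either gene, so both passed that filter through WT libraries alone. Their direction therefore follows in part from the filter, and these calls are not read as a difference. For the other genes below the filter no difference was tested in the main fit, and a count of 0 does not show that a gene is absent.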

How the data were processed

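Ribosome-bound RNA of 11 cerebella was sequenced. The deposited files hold raw counts per gene, 1 file per library, made by the authors with STAR and HTSeq on GRCm38, per the submitters' processing notes; the counting options and versions were not stated in them. Animal tags in the labels are the sole sign that libraries are separate animals, so p-values measure the spread between these libraries. In each file 5 summary lines that name no gene (18.26% to 26.12% of counted alignments) were left out. Depth spanned 2.58 to 5.14 M gene reads, and even the most alike libraries had a chi-square of 2.46 per degree of freedom, so none was treated as a copy.

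Genes were filtered with filterByExpr, scaled by TMM and fitted in edgeR 4.0.16 (R 4.3.3) with batch and genotype (7 residual degrees of freedom); log2 CPM had a prior count of 2. SEs were derived from each log2 fold change and its F statistic. DESeq2 1.42.0 and limma 3.58.1 were alternatives. On simulated counts for the 13375 genes with 200 changed, 33% of 2-fold and 75% of 4-fold changes were recovered and 3 unchanged genes called. The simulation took its means and dispersions from a fit on batch alone and changed far fewer genes than the 3257 called in the data. These figures therefore do not give the recovery or false calls of the main fit. Library totals were compared by an exact permutation within batches. Promoter windows and positions are from RefSeq GRCm38 tables, in which all 93 genes matched by symbol or synonym. No exon lengths were used here, so the level rule fell back on CPM.

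Named genes were those called, the 12 highest in WT CPM, the tested members of a list of Purkinje firing genes, and those without overlap between KO and WT, 25 in all, of which 4, and 1 partner gene, are not reported here. The members and lists were chosen with earlier results of these data known, and further genes named to complete a subfamily were picked after their values were seen.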

Additional observations from a re-analysis of the deposited data

Results flagged for a closer look

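A library stood apart from the others of its group in 4 of the 50 groups of libraries looked at for the 25 named genes; chance gives about 1 in 20. Kcnc4 in KO M374 was at 23.2 CPM, and the next KO library at 3.21 CPM. Kcnq3 in the same KO library was at 13.1 CPM, and the next at 5.67 CPM. Kcnj9 in KO M456 was at 215 CPM, and the next KO library at 159 CPM. KO M456 was the sole KO library of batch 3. The WT libraries of that batch had 215 to 226 CPM of Kcnj9, and the other WT libraries 161 and 177 CPM. This flag therefore cannot be told from a batch difference. Kcna6 in WT M476 was at 190 CPM, and the next WT library at 268 CPM. None of these 4 genes was called.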

How the results depend on the processing

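The 13 called genes kept their sign under all alternatives run, but not their calls, and the cause was not tested. Leaving out each library in turn gave 0 to 4 members higher, 0 to 13 lower and 335 to 4649 genes called in all. The main counts were 2, 11 and 3257. The library total and the marker score as covariates gave 0 higher, 0 lower and 0 of all genes called. At an adjusted p under 0.01 the counts were 1, 4 and 1271, and under 0.1 they were 5, 14 and 4725. In the same order, animals tagged M alone gave 1, 7 and 2213. Library totals without TMM gave 1, 11 and 3251, and thinning to the smallest library 1, 10 and 3231. Omission of batch 2 gave 4, 13 and 4643, and the DESeq2 Wald test 5, 12 and 4174. Without the filter the median of all genes moved to -0.21.

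Fitted changes near 0 turned sign. Over single omissions Kcna1 ran from -0.08 to 0.03, Kcna2 from -0.04 to 0.11, Kcna6 from -0.15 to 0.06, Kcnc4 from -1.56 to 3.46 and Kcnq3 from -0.59 to 0.4. Without the batch term Kcna6 was 0.02 and Kcna2 -0.1; without batch 2 Kcna6 was 0.06, and in animals tagged M Kcna6 was 0.02. With no filter Kcna2 was -0.00032 and Kcnq3 -0.01, and after thinning -0.0046 and -0.02. By limma-voom Kcnc4 was -1.04 and Kcnq3 -0.00056. With the library total Kcna1 was 0.08, Kcnn2 0.09 and Kcnmb4 -0.06, and with the marker score Kcnc4 was -4.74, Kcna2 -0.14, Kcna1 0.09 and Kcnq3 -1.47. Subfamily sums moved by less than their SD without TMM. No paired analysis was possible because the labels give no replicate numbers shared by the groups. The length alternative could not be run, since no exon lengths were at hand.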
